A study of Drosophila melanogaster with 12 samples.

Results

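The tetraspanin genes of Drosophila were examined in S2 cells after knockdown of SIN3, of SAM-S, or of both. Members were chosen by gene symbol: a row counted when one of its symbols began with Tsp and a digit or was lbm. This gave 36 rows with 35 symbols, of 14542 rows in the SIN3 table and 14540 in each of the SAM-S and double knockdown tables. Of these rows, 19 belong to the gene cluster at cytological position 42E (symbols Tsp42E and lbm) and 17 lie elsewhere. The family was taken up with the low values of Tsp42Eg after SIN3 and double knockdown already known, so the contrasts with the GFP control describe its members and test nothing about the family as a whole.

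Tetraspanins are small proteins that cross the membrane repeatedly and expose a short and a long loop outside the cell. They bind each other and partners such as integrins, receptors and membrane proteases, gather them in patches of the plasma membrane, and follow them into endosomes and secreted vesicles. In flies most family members are little studied. The known roles include synapse formation by motor axons, Notch signalling through the metalloprotease Kuzbanian, turnover of rhodopsin and the assembly of gut cell junctions.

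S2 is a cultured embryonic line with features of hemocytes, the macrophage-like blood cells of the fly. Wild type S2 cells received double-stranded RNA (dsRNA) for 4 days, against GFP as the control, against Sin3A, against Sam-S, or against both of these genes. Sin3A is the gene of a scaffold protein in histone deacetylase complexes, and the product of Sam-S synthesises the methyl donor S-adenosylmethionine. Each of the 4 groups had 3 samples, 12 in all, and the deposited tables hold 1 FPKM per gene and group (fragment counts normalised for transcript length and sequencing depth), so no value here has a spread between samples.

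Sam-S mRNA fell from 242 to 62.0 FPKM in the SAM-S group, for which the authors' deposited table gives q = 0.0306, and from 243 to 91.2 FPKM in the double knockdown, and the authors' deposited table lists q = 0.00157. Sin3A mRNA stood at 67.9 FPKM in the control and 61.7 after the labelled SIN3 knockdown, where the authors' deposited table gives q = 0.931. After the labelled double knockdown its level was 64.7 FPKM against 68.5, for which the authors' deposited table gives q = 0.930. Sam-S itself rose from 240 to 484 FPKM in the SIN3 group, and the authors' deposited table lists q = 0.00172. The steady-state mRNA of Sin3A therefore did not bear out the Sin3A part of either label, and "SIN3 group" and "double knockdown" below stand for the samples so labelled.

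Rows were called when the authors had tested them and their deposited Cuffdiff q was under 0.05. The authors tested 22 tetraspanin rows in every table, 10 of the 42E cluster and 12 of the others. The 14 untested rows reached at most 0.440 FPKM in the GFP control of any table. Bracketed pairs are approximate 95% intervals of the log2 fold change, rebuilt from the deposited test statistic. They follow the unadjusted p of the deposited tables closely but not exactly. Whether they cover the spread between samples cannot be told, because replicates were combined. GFP values are those of the SIN3 table unless both values of another table are given. They were higher in the SAM-S and double tables by median factors of 1.005 and 1.011.

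Tetraspanin mRNA in the control cells spanned a wide range of levels. Tsp42Ee was the most abundant member at 900 FPKM in the GFP control, which put it at rank 128 of all 14542 rows. Tsp42Ed followed at 96.0 FPKM, the merged row of CG30159 and Tsp42Ea at 94.8, Tsp3A at 73.2, Tsp42Ef at 57.3 and Tsp39D at 47.4. Next came Tsp97E at 37.5 FPKM, Tsp86D at 36.4, lbm at 27.9, Tsp42Eg at 25.3, Tsp26A at 11.5 and Tsp96F at 10.3. The order between neighbours this close has no replicate check. Tsp42El at 6.39 FPKM and Tsp66E at 3.96 stood lower, and 8 further tested rows lay between 0.789 (Tsp29Fa) and 1.92 FPKM (Tsp2A). The 4 rows called lower in the SIN3 table held places 9, 10, 12 and 14 among the 22 tested rows.

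**Figure D1:**
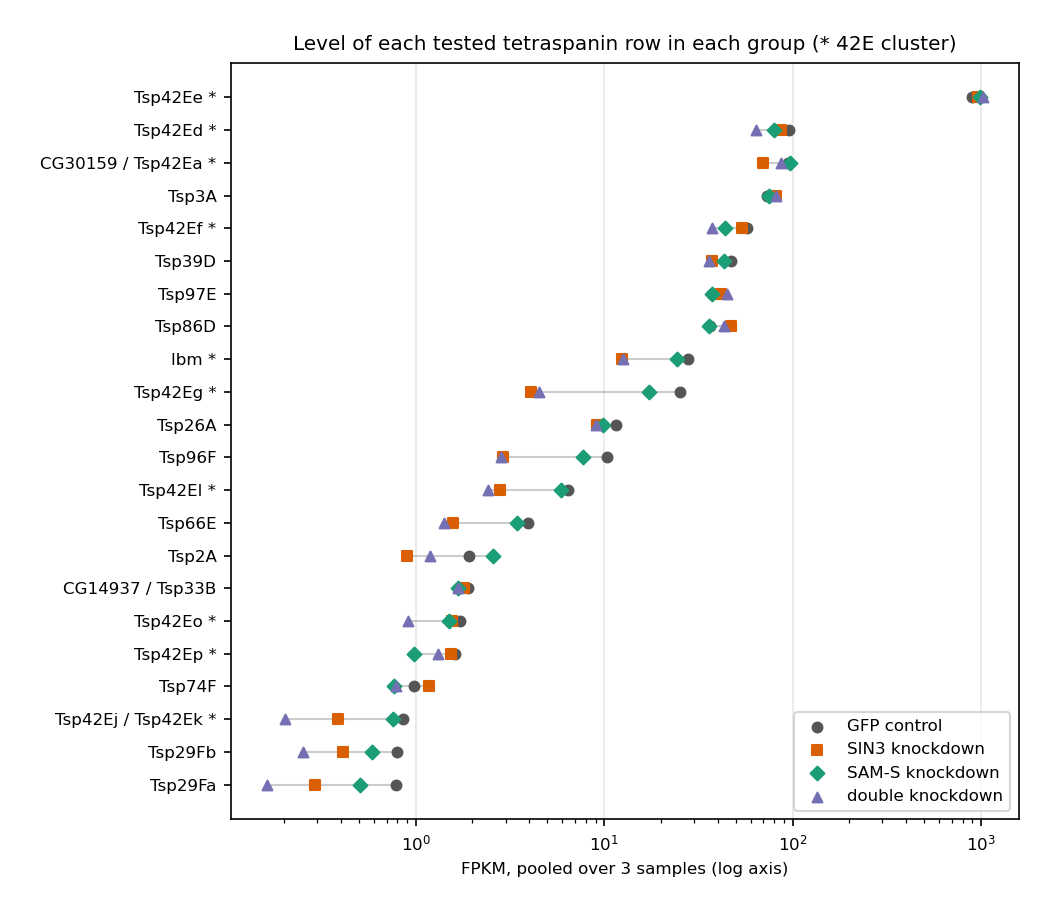
FPKM (log axis) of the tested tetraspanin rows in the pooled GFP control and the 3 pooled knockdowns, 1 point per group with no error bar because the replicates were combined; rows are ordered by control level. Tsp42Eg, lbm, Tsp96F and Tsp66E have their SIN3 and double knockdown points well to the left of control and SAM-S points, while the points of Tsp42Ee and Tsp3A nearly coincide.

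After SIN3 knockdown 4 tetraspanin rows fell, Tsp42Eg and lbm in the 42E cluster and Tsp96F and Tsp66E outside it. Cuffdiff called 0 higher, and 0 were higher at an unadjusted p under 0.05. The rows called lower are 2 of 10 tested 42E rows and 2 of 12 others, beside 4.35% of all 8123 tested rows called lower and 3.34% called higher. At the unadjusted p 7 of the 22 tested tetraspanin rows were lower, beside 758 lower and 703 higher over all tested rows. Median log2 fold changes were -0.30 for the 42E rows and -0.33 for the others, against -0.01 over all tested rows. Values were below the control for 17 of the 22 tested tetraspanin rows, and for 4184 against 3916 above it over all tested rows with a value in both groups. With a normal p taken from the deposited statistic, 1 row of the cluster and 1 of the others were called. In these bulk samples fewer cells of a kind and less RNA per cell cannot be told apart.

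After SAM-S knockdown Cuffdiff called 0 of the 22 tested tetraspanin rows in either direction. At an unadjusted p under 0.05 only Tsp42Eg was lower and none was higher. Across all rows, 0.0754% of 7957 tested rows were called lower and 0.0880% higher at the same q. At the unadjusted p 1.32% of them were lower, and 118 rows were higher. The median log2 fold change was -0.20 for the 42E rows and -0.21 for the others, against -0.02 over all tested rows.

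In the double knockdown 8 tetraspanin rows fell. Cuffdiff called 0 higher, again with 0 higher at an unadjusted p under 0.05. Tsp42Eg, lbm, Tsp42El, the merged row of Tsp42Ej and Tsp42Ek, Tsp42Ed and Tsp42Ef were called in the 42E cluster, 6 of 10 tested. Tsp96F and Tsp66E were called outside it, 2 of 12 tested. The background was 6.14% of 8158 tested rows called lower and 3.48% called higher. At the unadjusted p 11 of the 22 tested tetraspanin rows were lower, beside 942 lower and 727 higher over all tested rows. The median log2 fold change was -0.78 for the 42E rows and -0.39 for the others, against -0.01 over all tested rows. At q under 0.01 the 42E count was 2, and it was 1 when p was taken from the deposited statistic as a normal value. The 3 tables use the same GFP samples, so calls shared between them are not separate observations.

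**Figure D2:**
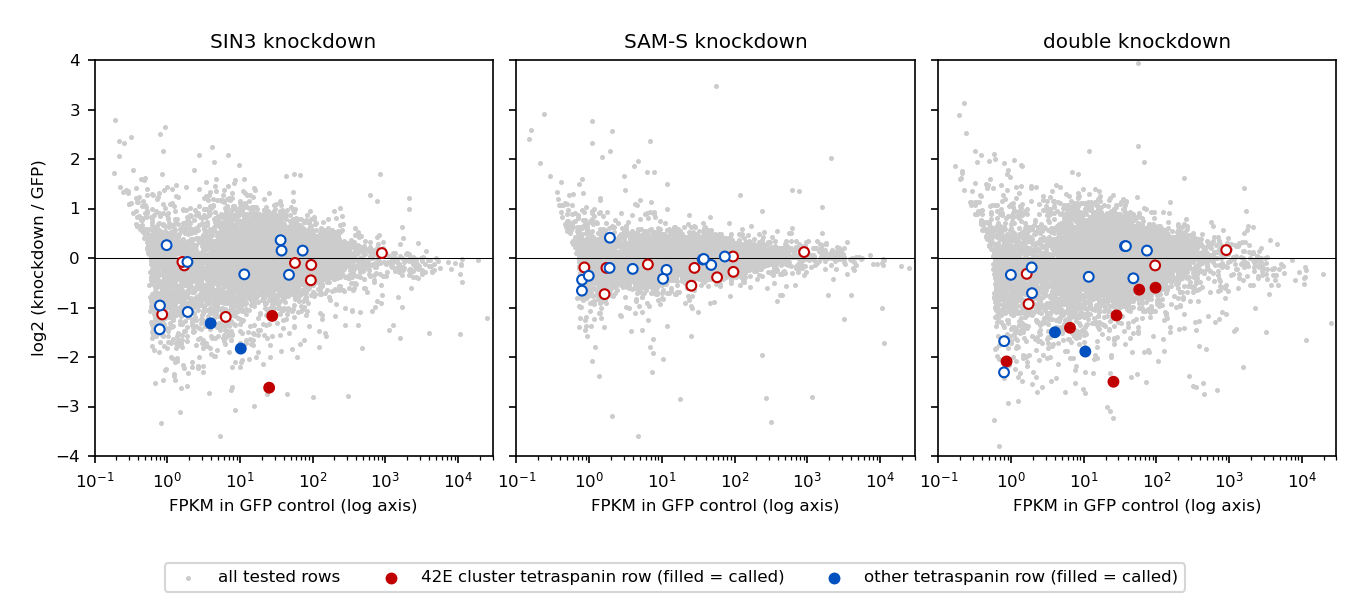
Log2 fold change (knockdown over GFP) against control FPKM (log axis) for all tested rows in grey and the tetraspanin rows in colour, filled where called; 1 panel per table, with a few grey rows beyond 4 log2 units not drawn. Called tetraspanin rows lie below 0 in the SIN3 and double panels, and no point of the family is filled in the SAM-S panel.

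Tsp42Eg showed the deepest fall among the tested tetraspanins in the SIN3 group and in the double knockdown. The gene lies in the middle of the 42E cluster (dm3, chromosome 2R, 2916416 to 2920738), and it is a tetraspanin without an assigned role here. It stood at 25.3 FPKM in the GFP control, 4.09 in the SIN3 group, 17.2 in the SAM-S group and 4.52 in the double knockdown. The low groups are the SIN3 group and the double knockdown, and the SAM-S group lies between them and the control. The log2 fold change was -2.62 [-3.24, -2.01] in the SIN3 group, where the authors' deposited table gives q = 0.00172, and it ranked 14 from the lowest of 8100 rows. In the double knockdown it was -2.50 [-3.11, -1.89], for which the authors' deposited table gives q = 0.00157, at rank 22 of 8139. In the SAM-S group it was -0.56 [-1.05, -0.08], and the authors' deposited table lists p = 0.0275 and q = 0.9999.

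The late bloomer gene lbm encodes a tetraspanin of motor axons that promotes the formation of neuromuscular synapses (chromosome 2R, 2936743 to 2939469). Its mRNA stood at 27.9 FPKM in the control, 12.4 in the SIN3 group, 24.5 in the SAM-S group and 12.6 in the double knockdown. It fell by 1.17 on the log2 scale [-1.71, -0.63] in the SIN3 group, where the authors' deposited table gives q = 0.00172. The fall in the double knockdown was of nearly equal size at -1.16 [-1.69, -0.63], for which the authors' deposited table gives q = 0.00283. The SAM-S group differed from the control by -0.20 [-0.65, 0.26] and was not called.

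Between Tsp42Eg and lbm lie Tsp42Eh, Tsp42Ei, the merged row of Tsp42Ej and Tsp42Ek, and Tsp42El. Tsp42El (2933274 to 2936043), a family member of unknown role here, stood at 6.39 FPKM in the control, 2.79 in the SIN3 group, 5.89 in the SAM-S group and 2.43 in the double knockdown. Its log2 fold change was -1.19 [-1.97, -0.42] in the SIN3 group, just outside the call, since the authors' deposited table gives q = 0.0575. In the double knockdown it fell by 1.41 on the log2 scale [-2.21, -0.62], and the authors' deposited table lists q = 0.0203. The called tetraspanin nearest to the threshold in the SIN3 table was Tsp66E, for which the authors' deposited table gives q = 0.0232.

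Tsp42Ej, also named sunglasses, encodes a lysosomal tetraspanin needed for light-induced turnover of rhodopsin in photoreceptors. The tables merge it with Tsp42Ek (2927641 to 2932215), so their reads cannot be told apart. The row stood at 0.854 FPKM in the control, 0.388 in the SIN3 group, 0.753 in the SAM-S group and 0.203 in the double knockdown. It was called in the double knockdown at -2.09 [-3.61, -0.57], where the authors' deposited table gives q = 0.0474, which is the family's called row nearest to the threshold there. With 1 FPKM added to both values the double knockdown difference was -0.63. In the SIN3 group the log2 fold change was -1.14 with an upper bound at 0.00, and the authors' deposited table lists p = 0.0394 and q = 0.255.

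Tsp42Eh and Tsp42Ei were not tested. Tsp42Eh stood at 0.206 FPKM in the control, 0.0972 in the SIN3 group, 0.234 in the SAM-S group and 0.0286 in the double knockdown. Tsp42Ei stood at 0.436, 0.171, 0.177 and 0.143 FPKM in the same order, and CG33914, which overlaps it on the opposite strand, was untested too at 0.178 FPKM in the control. At these levels a difference has no test, and the strand setting of the counting is not given in the sources used here.

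These low values lay side by side along the chromosome. The stretch from Tsp42Eg to lbm holds 6 rows over 23.1 kb of the 73.4 kb cluster (2880181 to 2953618), of which 4 were tested. This stretch was delimited after its values were seen, so its summaries are a description. Its 4 tested rows had a median log2 fold change of -1.18 in the SIN3 group, -0.20 in the SAM-S group and -1.75 in the double knockdown. The 4 tested rows before it, from Tsp42Ea to Tsp42Ef, had medians of -0.12, -0.12 and -0.38 in the same order. Behind it only Tsp42Eo and Tsp42Ep were tested, with medians of -0.11, -0.46 and -0.62 and no call in any table.

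**Figure D3:**
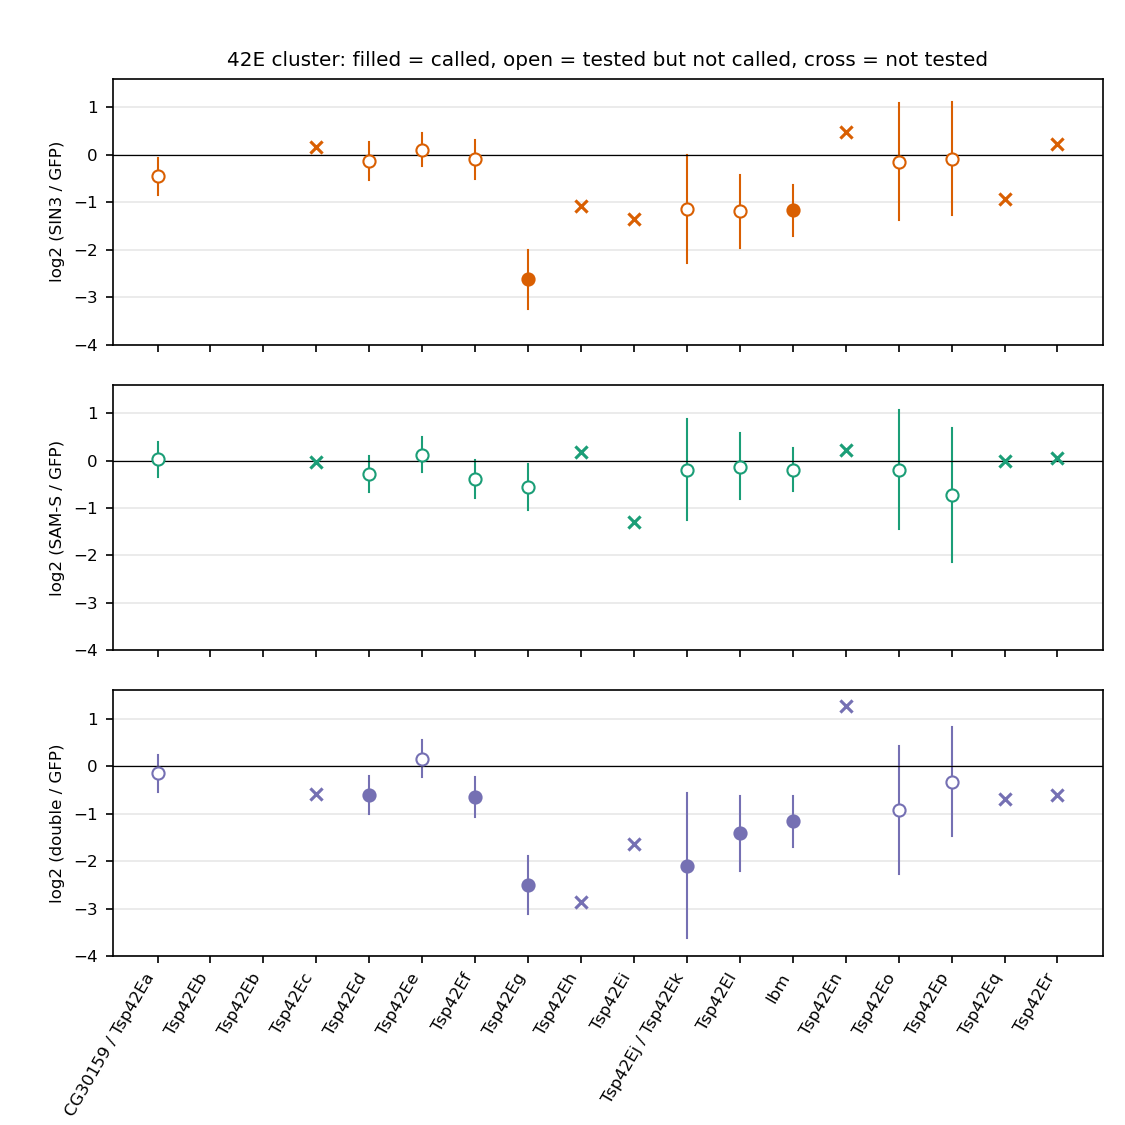
Log2 fold change (knockdown over GFP) of each 42E row in chromosome order, 1 panel per table; bars are approximate 95% intervals from the deposited statistic, filled points were called, and untested rows are drawn without an interval. In the SIN3 and double panels the points from Tsp42Eg to lbm lie below those of Tsp42Ee and Tsp42Ef.

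Nearer the low-coordinate end of the cluster, Tsp42Ed and Tsp42Ef are abundant tetraspanins that were called in the double knockdown alone. Tsp42Ed (2897365 to 2899244) stood at 96.0 FPKM in the control, 87.1 in the SIN3 group, 79.3 in the SAM-S group and 64.1 in the double knockdown. It fell by 0.60 on the log2 scale [-1.0, -0.20] in the double knockdown, for which the authors' deposited table gives q = 0.0426. The values of the single knockdowns were -0.14 and -0.28, neither called.

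Tsp42Ef (2912515 to 2915587) stood at 57.3 FPKM in the control, 53.6 in the SIN3 group, 43.9 in the SAM-S group and 37.2 in the double knockdown. Its fall of 0.64 on the log2 scale [-1.06, -0.22] came with q = 0.0376 in the double-knockdown comparison of the authors' deposited table. In the single knockdowns its log2 fold changes were -0.10 for SIN3 and -0.39 [-0.79, 0.01] for SAM-S, and the authors' deposited table lists p = 0.0532 for the latter. Both genes were lowest in the double knockdown, with the SAM-S value between it and that of the SIN3 group.

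The abundant Tsp42Ee (2899759 to 2905867) lies between Tsp42Ed and Tsp42Ef and was called in none of the tables. It stood at 900 FPKM in the control, 967 in the SIN3 group, 988 in the SAM-S group and 1021 in the double knockdown. Intervals of its log2 fold change were [-0.24, 0.45], [-0.24, 0.49] and [-0.22, 0.55], so a fall as deep as that of Tsp42Ed in the double knockdown lies outside its interval there. Tsp42Ee alone made up 74.2% of the summed FPKM of the 42E rows in the control and 80.5% after SIN3, 78.4% after SAM-S and 82.9% after double knockdown. Without it the 42E sum was 313 FPKM in the control and 234 in the SIN3 group, 315 and 272 for the SAM-S comparison, and 317 and 210 for the double knockdown.

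The merged row of CG30159 and Tsp42Ea opens the cluster. It stood at 94.8 FPKM in the control, 69.3 in the SIN3 group, 97.2 in the SAM-S group and 86.4 in the double knockdown. The SIN3 difference of -0.45 [-0.84, -0.06] was not called, and the authors' deposited table gives q = 0.190 for it. Of the tested 42E rows it and Tsp42Eg were the only ones with a lower value in the SIN3 group than in the double knockdown by more than 0.1 on the log2 scale, after scaling the tables to 1 control.

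Tsp42Eo and Tsp42Ep are given on opposite strands at one shared locus (2942222 to 2945099). Tsp42Eo stood at 1.72 FPKM in the control, 1.56 in the SIN3 group, 1.51 in the SAM-S group and 0.915 in the double knockdown. Tsp42Ep stood at 1.62, 1.53, 0.981 and 1.31 FPKM in the same order. Neither was called, and without a stated strand setting their reads cannot be told apart. Tsp42Ec, Tsp42En, Tsp42Eq and Tsp42Er were untested at 0.303, 0.0727, 0.0537 and 0.292 FPKM in the control, and the 3 rows of Tsp42Eb, one of them on the unplaced sequence Uextra, were listed at 0 in every group.

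Rows of other genes inside the cluster or within 50 kb of it describe the surroundings of the cluster. Of 20 such rows 10 were tested, and Cuffdiff called none of them in any table. Their median log2 fold changes were 0.00 after SIN3, 0.01 after SAM-S and -0.03 after double knockdown. Over all tested rows the shares called lower were 4.35%, 0.0754% and 6.14% in the same order, so 0 calls among 10 rows was near the background. At an unadjusted p under 0.05, 1 of the 10 rows was lower after SIN3 knockdown (CheB42c and mim), 0 after SAM-S knockdown, and 2 were lower and 1 higher after double knockdown. Over all tested rows, 758 of 8123 were lower at that p after SIN3 knockdown. After double knockdown 942 were lower and 727 higher, of 8158. Inside the cluster, the glycosyltransferase gene pgant3, just behind Tsp42Ep, stood at 52.7 FPKM in the control and 54.0 in the SIN3 group. CG43646 and CG43647, between Tsp42Ee and Tsp42Ef, had log2 fold changes of 0.73 and 0.67 in the SIN3 group. Their values were 0.26 and 0.90 in the SAM-S group and 0.62 and 1.17 in the double knockdown, uncalled in every table. Both were low in the control, at 1.80 and 2.71 FPKM. The row higher at the unadjusted p after double knockdown was CG43647. Before the cluster, the merged row of CheB42c and mim had the lowest value of the SIN3 table among these rows, at -0.90 [-1.47, -0.33]. The other tested rows there, CG3358, vimar, CG30156, CG44171, CG17002 and the merged row of CG30157 and Cyp6u1, lay between -0.32 and 0.21 in the SIN3 group. None of the 4 rows behind the cluster was tested. No tested row of another gene lies between Tsp42Eg and lbm, so the low stretch itself has no such comparison. CG33914, the only other row there, was untested. It stood at 0.178 FPKM in the control, 0.0649 in the SIN3 group, 0.128 in the SAM-S group and 0.0442 in the double knockdown.

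Outside the cluster, Tsp96F had the deepest fall among the called tetraspanins. It lies on chromosome 3R (21698564 to 21707162) and stood at 10.3 FPKM in the control, 2.90 in the SIN3 group, 7.76 in the SAM-S group and 2.83 in the double knockdown. The log2 fold change was -1.83 [-2.38, -1.28] in the SIN3 group, where the authors' deposited table gives q = 0.00172. It was -1.89 [-2.43, -1.35] in the double knockdown, for which the authors' deposited table gives q = 0.00157. In the SAM-S group it was -0.42 [-0.86, 0.01], and the authors' deposited table lists p = 0.0621. As for Tsp42Eg, the SIN3 group and the double knockdown were low and the SAM-S value lay between them and the control.

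Tsp66E (chromosome 3L, 8899017 to 8925165) stood at 3.96 FPKM in the control, 1.58 in the SIN3 group, 3.43 in the SAM-S group and 1.42 in the double knockdown. It fell by 1.32 on the log2 scale [-2.06, -0.58] in the SIN3 group, where the authors' deposited table gives q = 0.0232. In the double knockdown it fell by 1.50 [-2.24, -0.76], for which the authors' deposited table gives q = 0.00157. The gene mfr overlaps it on the opposite strand, and that gene stood at 0.00518 FPKM in the control.

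Tsp29Fa and Tsp29Fb are neighbours on chromosome 2L (8933964 to 8936096 and 8937390 to 8939746) at low levels. Tsp29Fa stood at 0.789 FPKM in the control, 0.292 in the SIN3 group, 0.505 in the SAM-S group and 0.162 in the double knockdown. Tsp29Fb stood at 0.795, 0.409, 0.589 and 0.251 FPKM in the same order, with the lowest value again in the double knockdown. CG9510, now Argl, starts at 8939780 just behind Tsp29Fb in the tables, overlaps it in the current annotation, and stood at 29.6 FPKM. Their double knockdown log2 fold changes were -2.31 [-3.96, -0.65] and -1.68 [-3.03, -0.33], and neither was called, with q = 0.0947 and q = 0.0700 in the authors' deposited table. The second of these is the uncalled tetraspanin nearest to the threshold in that table. With 1 FPKM added to both values the differences were -0.63 and -0.53.

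Tsp3A, Tsp86D and Tsp26A are the fly relatives of the TspanC8 tetraspanins, which carry the protease Kuzbanian (ADAM10 in mammals) to the cell surface and promote Notch signalling. None of them was called. Tsp3A stood at 73.2 FPKM in the control, 81.4 in the SIN3 group, 75.3 in the SAM-S group and 81.9 in the double knockdown. Tsp86D stood at 36.4, 46.9, 35.9 and 43.4 FPKM in the same order, with a SIN3 difference of 0.36 [-0.03, 0.75]. Tsp26A stood at 11.5, 9.19, 9.84 and 9.02 FPKM, with a double knockdown difference of -0.38 [-0.83, 0.08]. The interval of Tsp3A in the double knockdown ran from -0.21 to 0.50, so falls of the size seen for lbm lie outside it.

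Tsp2A forms smooth septate junctions with Ssk and mesh in gut epithelia. It stood at 1.92 FPKM in the control, 0.902 in the SIN3 group, 2.57 in the SAM-S group and 1.19 in the double knockdown, uncalled, and its interval in the double knockdown ran from -2.76 to 1.34. MTPAP, named CG11418 in the tables, overlaps it and stood at 7.09 FPKM. At this level a large fall and no change could not be told apart in the double knockdown.

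The remaining tested rows outside the cluster have no role given here and were not called. Tsp97E stood at 37.5 FPKM in the control, 41.6 in the SIN3 group, 37.2 in the SAM-S group and 45.0 in the double knockdown. Tsp39D stood at 47.4, 37.5, 43.5 and 36.2 FPKM in the same order, and its double knockdown difference of -0.41 [-0.78, -0.04] had p = 0.0335 and q = 0.188 in the authors' deposited table. The merged row of CG14937 and Tsp33B stood at 1.90, 1.80, 1.67 and 1.68 FPKM. Tsp74F stood at 0.983, 1.18, 0.768 and 0.785 FPKM. Tsp5D, Tsp42A, the merged row of CG42660 and Tsp66A, Tsp47F and Tsp68C were untested at 0.0552 FPKM or less in the control, the last one listed at 0 in every group.

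**Figure D4:**
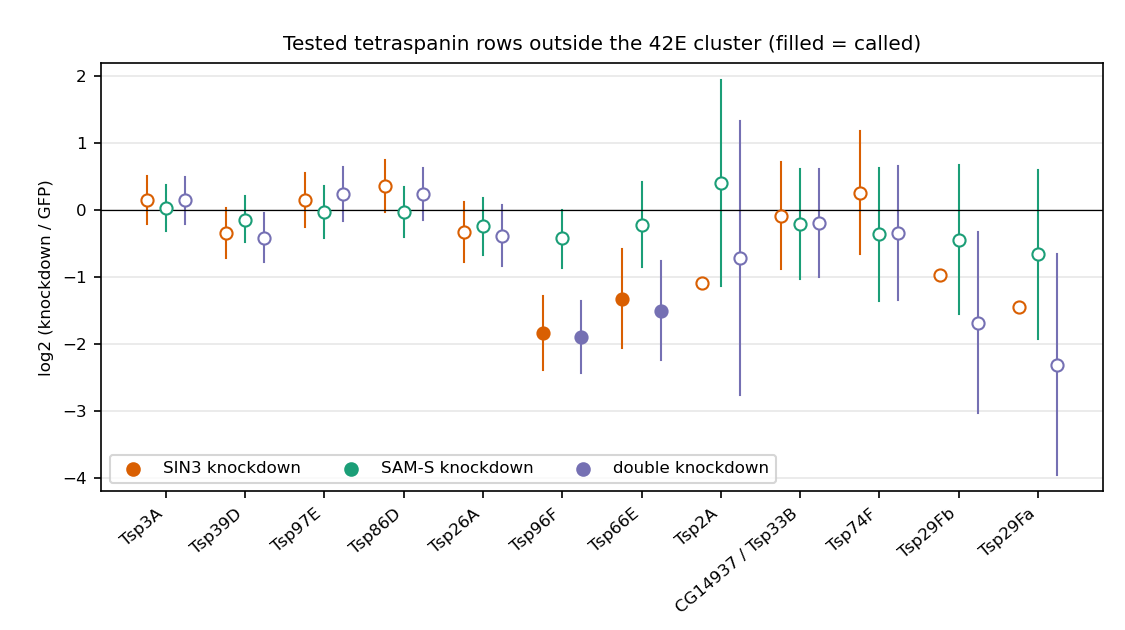
Log2 fold change (knockdown over GFP) of the 12 tested tetraspanin rows outside the 42E cluster in the 3 tables; bars are approximate 95% intervals from the deposited statistic, left out where the statistic did not track its p, and filled points were called. Tsp96F and Tsp66E are filled in the SIN3 and double knockdown tables, and the points of Tsp3A, Tsp86D and Tsp97E lie at or above -0.03.

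Set directly beside the SIN3 group, after scaling to 1 control, the double knockdown gave log2 ratios of 0.13 for Tsp42Eg, 0.01 for lbm, -0.05 for Tsp96F, -0.18 for Tsp66E and -0.22 for Tsp42El. All of these lie within -0.45 to 0.45, the 5th to 95th percentile of the 7586 rows with at least 1 FPKM. Tsp42Ed at -0.46, Tsp42Ef at -0.54 and the uncalled Tsp42Eo at -0.78 lay below that range. Among tested members under 1 FPKM in the control, which that range leaves out, the ratios were -0.95 for Tsp42Ej and Tsp42Ek, -0.87 for Tsp29Fa, -0.72 for Tsp29Fb and -0.60 for Tsp74F. Beside the SAM-S group the double knockdown stood at -1.94 for Tsp42Eg, -0.97 for lbm, -1.46 for Tsp96F, -1.28 for Tsp66E and -1.29 for Tsp42El, all below the range of -0.82 to 0.60 of the 7588 rows. The uncalled Tsp2A, at -1.12, lay below that range too. For Tsp42Ed and Tsp42Ef these ratios were -0.31 and -0.25, inside it. These ratios were not tested, since the tables used here hold 1 pooled value per group.

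The proteins that tetraspanins work with were listed by known function. Of 7 integrin subunit genes, 6 were tested in the SIN3 table and 3 fell, beside 4.35% of all tested rows called lower. The integrin beta subunit gene betaInt-nu fell from 6.37 to 2.55 FPKM, and the authors' deposited table lists q = 0.00172. The alpha subunit gene scb fell from 6.07 to 3.27 FPKM and alphaPS5 from 0.613 to 0.217 FPKM, where the authors' deposited table gives q = 0.0137 and q = 0.0464. In the double knockdown betaInt-nu was the only integrin called, at 6.45 and 2.81 FPKM, for which the authors' deposited table gives q = 0.00283. There scb stood at 3.78 FPKM against 6.13, uncalled with q = 0.0596 in the authors' deposited table. The low alphaPS5 was nearly unchanged in the double knockdown, at 0.588 FPKM against 0.619. The shares of all tested rows called lower were 6.14% there and 0.0754% after SAM-S knockdown. Cuffdiff called 0 of the 5 integrins tested after SAM-S knockdown, and 0 had an unadjusted p under 0.05. The most abundant integrin gene, the beta subunit gene mys, went the other way without a call, at 214 FPKM against 180 in the SIN3 group and 245 against 182 in the double knockdown. For mys in the double knockdown the authors' deposited table gives p = 0.0196 and q = 0.131. The summed FPKM of the 7 genes was 309 in the SIN3 group against 297, and 367 in the double knockdown against 301. Median log2 fold changes of the tested integrins were -0.57 after SIN3, 0.16 after SAM-S and -0.29 after double knockdown.

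Of 12 genes of Kuzbanian and the Notch pathway, 8 were tested. Cuffdiff called 2 of them lower in the SIN3 group and 2 in the double knockdown, beside 4.35% and 6.14% of all tested rows. The receptor gene N fell from 7.27 to 2.97 FPKM and the ligand gene Ser from 5.12 to 2.05 FPKM in the SIN3 group, and the authors' deposited table gives q = 0.00172 for both. They fell in the double knockdown from 7.35 to 3.39 and from 5.17 to 2.46 FPKM, with q = 0.00157 and q = 0.00507 in the authors' deposited table. The median of the list was close to 0, at -0.03 after SIN3, -0.11 after SAM-S and -0.08 after double knockdown. Cuffdiff called 0 of the 8 after SAM-S knockdown, and 0 had an unadjusted p under 0.05 there. Of the 4 tested partners of smooth septate junctions Cuffdiff called 0 in any table, and 0 had an unadjusted p under 0.05. The mesh gene (CG31004) was untested at 0.240 FPKM in the control. Ssk had a SIN3 difference of -0.82 [-3.32, 1.68], an interval too wide to tell a large fall from no change. Of 18 genes of endosomes and multivesicular bodies all were tested, and the ESCRT partner gene ALiX was the only one called, higher at 144 against 97.5 FPKM in the SIN3 group and at 142 against 98.5 in the double knockdown. For ALiX the authors' deposited table gives q = 0.0246 and q = 0.0356. By comparison, 3.34% of all tested rows were called higher after SIN3 knockdown and 3.48% after double knockdown. ALiX alone among the 18 rows was near that background.

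A pair of genes outside the symbol rule carry a tetraspanin name among their RefSeq synonyms. TM4SF (Tsp60A) stood at 3.07 FPKM in the control, 1.42 in the SIN3 group, 2.48 in the SAM-S group and 1.66 in the double knockdown, and was not called, with q = 0.790 in the SIN3 table and q = 0.755 in the double table in the authors' deposited tables. CG31600 (Tsp40A) was not tested, at 0.0234 FPKM in the control.

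Hemocyte markers were called lower in the same tables as the tetraspanins. Of 9 tested markers, 4 fell in the SIN3 group, 0 in the SAM-S group and 5 in the double knockdown, by Cuffdiff at q under 0.05, with 1 marker at an unadjusted p under 0.05 in the SAM-S group. Over all tested rows the shares called lower were 4.35%, 0.0754% and 6.14%. At that unadjusted p 1.32% were lower after SAM-S knockdown. Pxn, encoding the matrix protein peroxidasin, fell from 151 to 50.9 FPKM in the SIN3 group, a log2 fold change of -1.57, and the others were Nplp2 from 24886 to 10668, He from 774 to 425 and Hml from 0.779 to 0.336 FPKM. In the double knockdown these 4 fell again, Pxn to 58.1, Nplp2 to 10156, He to 367 and Hml to 0.299 FPKM. The phagocytosis receptor gene nimC1 was the fifth there, at 3.19 against 6.51 FPKM, and the authors' deposited table gives q = 0.0190 for it. In the control 1 of the 9 markers, Hml, was under 1 FPKM and none was at 0. The summed FPKM of the list went from 26336 to 11660 with SIN3 knockdown, from 26502 to 23276 with SAM-S knockdown and from 26656 to 11165 with both, most of it Nplp2. The scavenger receptor gene crq stood at 140 FPKM in the SIN3 group against 111, and Pvr at 260 against 264, neither called. In the double knockdown crq stood at 110 FPKM against 112 and Pvr at 346 against 266, again uncalled. The markers srp and eater were called in no table. Their log2 fold changes were -0.32 and -0.42 in the SIN3 group and -0.13 (srp merged with CR44133) and -0.38 in the double knockdown. The part of this movement in the tetraspanin values was not tested.

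Most markers of other cell types were at low levels. In the control, 4 of 5 neuron markers, 5 of 5 muscle markers, 4 of 5 germline markers and 3 of 5 markers of gut and fat body were under 1 FPKM, and none was at 0. The exceptions were the germline gene aub at 36.9 FPKM, the merged row of CG18661 and the protease gene Try29F at 20.2, the neuronal gene elav at 3.22 and the fat body gene Rfabg at 2.12. The list sums went from 3.72 to 5.28, from 1.87 to 2.35, from 39.1 to 32.1 and from 22.5 to 16.5 FPKM with SIN3 knockdown. With SAM-S knockdown the sums ended at 3.65, 2.25, 35.9 and 21.3 FPKM, and with both at 4.68, 2.86, 29.2 and 17.2 FPKM. Only 1 neuron, 1 muscle, 3 germline and 2 gut and fat body markers were tested in the SIN3 and double tables. Of these Rfabg, the lipophorin gene of the fat body, was the only one called, lower in the SIN3 group and the double knockdown at -0.85 and -0.79. Over all tested rows 4.35% and 6.14% were called lower there. The part of these markers in the tetraspanin values was not tested.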

How the data were processed

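Total RNA of the 12 samples was sequenced on Illumina libraries, per the labels' protocols. The submitters' processing notes name bcl2fastq, Cuffdiff and build dm3 without versions. For the aligner, annotation and strand setting, nothing is stated in the labels or headers. Each deposited table holds, per the file headers, the authors' FPKM in the control and the knockdown, a test statistic (a score), and a p-value and q-value. The labels say that replicates were combined, so whether the deposited p-values measure the spread between samples cannot be told. Read depth is unknown, and no counting interval is given.

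Fold changes (log2) are the ratio of the 2 deposited FPKM values with no pseudocount. Calls are the authors' own, and all p and q values come from their tables over all tested rows. Standard errors are the log2 fold change over the deposited statistic, divided by the table's median ratio of the normal quantile of p to the statistic (1.74, 1.74 and 1.73). Intervals of 95% are given where the rescaled statistic tracked p within 0.3 normal units or 15%, as for 7922, 7855 and 7984 tested rows. No deposited p is under 5.00e-05, and no q is under 0.00172, 0.0306 and 0.00157 in the 3 tables. Starts in the files count from 0, so 1 was added. All 35 symbols matched protein-coding genes of the current annotation, used for strand and overlap only.

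The members and the gene lists were chosen with earlier results of these data known. Rows are named with values when tested in any table or at 1 FPKM in any group, partner genes and markers when called, and neighbours when tested. Untested rows, crq, Pvr, srp, eater, mys, Ssk, aub, Try29F, elav and overlapping genes were added after their values were seen. The calculations were run on simulated data built with a constant standard error and a normal p, the form that the intervals assume. That run checked the arithmetic only and says nothing about how well the intervals hold for the deposited rows. Python 3.11.15, pandas 2.3.3, numpy 2.4.6, scipy 1.17.1 and matplotlib 3.10.9 were used. Alternatives were a q of 0.01, recomputed adjustment, a floor of 1 FPKM, a normal p from the statistic, pseudocounts of 0.1 and 1, centring and the control of the other tables.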

Additional observations from a re-analysis of the deposited data

How the results depend on the processing

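Of 16 alternatives for the 4 counts of calls above 0, 10 stayed within 1.5 times the reported count and 6 did not. The other 32 compare counts of 0 and say nothing about stability. With q under 0.01, the calls lower outside the cluster after SIN3 knockdown went from 2 to 1, and those of the 42E cluster in the double knockdown from 6 to 2. With a normal p taken from the deposited statistic, which is smaller than the normal quantile of the deposited p, the counts went from 2 to 1 for the 42E cluster and from 2 to 1 for the others in the SIN3 table, and from 6 to 1 and from 2 to 1 in the double table. A pseudocount added to both values cannot reverse a sign, so it says nothing about direction. None of the 66 log2 fold changes of tested members reversed under centring or with the control of another table, which holds the same GFP samples. Both of these shifts were small. Using the control of another table moved them by at most 0.01, and the median tested row stood at -0.014, -0.018 and -0.015. Over all rows above 0 the medians became -0.34 for the other rows in the SIN3 table (13 rows), and for the 42E rows -0.16 after SAM-S and -0.66 after double knockdown (16 rows each). No paired analysis was possible because the tables used here give a group as 1 pooled value. For the same reason no replicate could be left out, and differences of rows under about 1 FPKM are the least certain.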
